A study of Caenorhabditis elegans with 2 samples.

Results

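The genes K12H4.5, ftt-2, atx-2, T13C5.6, W01D2.3 and idhg-1 carried some of the strongest promoter binding of the tagged B0310.2 protein in early embryos of Caenorhabditis elegans, at places with no tRNA, tRNA pseudogene, snoRNA or snRNA gene beside the summit. These 6 genes, of 19973 protein-coding genes on the nuclear chromosomes, were chosen by the signal of their promoter peaks in these data, so that signal is described here and not tested. Chromatin immunoprecipitation with an antibody to GFP followed by sequencing was done on 2 samples, labelled biological replicates 1 and 2 of 1 group. Both came from strain OP642, which is unc-119 (tm4063) III and carries the transgene wgIs642, from which B0310.2 is made with a carboxy-terminal GFP and FLAG tag. The material was whole early embryos, of both sexes, taken 0 h after synchronisation by egg bleaching, so binding in different cells of the embryo is averaged. An untagged strain or another condition was not analysed here, and the promoter that drives the transgene is not given in the sources used here.

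By annotation, the product of B0310.2 is a putative zinc finger protein. In chromatin immunoprecipitation, DNA that is crosslinked to the tagged protein is enriched, and a peak caller reports each enriched region with a signal value and a summit, the base at which enrichment is highest. A summit in a promoter says that the tagged protein was recovered with that DNA, directly or through other proteins, and not that the gene is regulated by it. In C. elegans many promoters lie between divergent genes, so that 1 peak can fall in the promoter of both, and small noncoding RNA genes are often found inside or beside protein-coding genes.

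A promoter was taken as the stretch from 1000 bp upstream to 300 bp downstream of a transcript's annotated 5′ end. The authors' list of 642 peaks that passed their reproducibility threshold (the optimal list, build ce11) had 297 summits in promoters. Of these, 229 had no tRNA, tRNA pseudogene, snoRNA or snRNA gene, here called small RNA genes, within 200 bp. The 58 strongest peaks, down to the one at idhg-1, comprised 45 beside a small RNA gene and 13 without, and 8 of the 13 lay in promoters. Of those 8, 6 were the promoters described here, and the other two, at rpl-3 and at ears-2, lay in rank between W01D2.3 and idhg-1. Signal values and peak positions are as the authors deposited them.

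The sequence at each optimal summit is shown first, because the base patterns described further on are read from it. Each line holds the summit base and 50 bp to each side, written 5′ to 3′ along the strand of the named gene, from ce11 (the assembly WBcel235). Capitals mark some of the stretches of 8 or 9 bases that a pair of members share, 1 occurrence of TTGCGA, 1 palindrome at W01D2.3 and 1 B box at T13C5.6. All of them were picked after the sequences had been seen. Other shared stretches of 8 bases are not marked. They are AAATGCGC (K12H4.5 and atx-2), AAAAAGAG (K12H4.5 and idhg-1) and ACAGAAAA (ftt-2 and W01D2.3). The windows are chrIII:8043933-8044033 (plus strand) for K12H4.5, chrX:11605901-11606001 (minus) for ftt-2, chrIII:10461281-10461381 (plus) for atx-2, chrX:6207850-6207950 (minus) for T13C5.6, chrII:14804645-14804745 (minus) for W01D2.3 and chrIII:4568700-4568800 (plus) for idhg-1.
K12H4.5: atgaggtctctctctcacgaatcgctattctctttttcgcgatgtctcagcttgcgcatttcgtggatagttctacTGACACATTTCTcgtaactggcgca
ftt-2: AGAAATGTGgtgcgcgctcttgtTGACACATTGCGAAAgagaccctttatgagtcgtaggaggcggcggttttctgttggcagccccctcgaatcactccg
atx-2: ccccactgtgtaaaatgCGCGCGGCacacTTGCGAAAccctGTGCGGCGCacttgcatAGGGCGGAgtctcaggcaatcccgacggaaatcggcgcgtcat
T13C5.6: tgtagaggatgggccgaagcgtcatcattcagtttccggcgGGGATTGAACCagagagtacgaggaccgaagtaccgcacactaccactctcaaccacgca
W01D2.3: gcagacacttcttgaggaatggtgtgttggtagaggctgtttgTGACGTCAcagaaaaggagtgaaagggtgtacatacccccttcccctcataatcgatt
idhg-1: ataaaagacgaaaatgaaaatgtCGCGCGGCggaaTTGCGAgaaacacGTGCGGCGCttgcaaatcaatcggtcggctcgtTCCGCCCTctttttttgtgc

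All 6 genes had a promoter summit in the optimal list, where 1.85% of protein-coding genes had one, and nothing is read from that difference because the genes were selected on it. Each of the 6 also had one among the 642 strongest regions of replicate 1, where 1.51% of genes did, and among the 642 strongest of replicate 2, where 1.91% did. The optimal list was made from both replicates, so these counts are not independent of the choice either. The peaks are described below by gene role, starting with the gene of unknown function that had the strongest peak.

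K12H4.5 (WBGene00019680, chrIII:8044487-8044780, plus strand) is a gene of 294 bp whose RefSeq product is an uncharacterized protein. Its promoter region had rank 3 in the optimal list with a signal of 911.7. In replicate 1 its rank was 3 with a signal of 279.1, and in replicate 2 it was 3 with a signal of 633.6. The signals of the 2 replicates are on scales that are not stated and are not compared with each other, but the rank was the same in every list. Set against the median signal of the 642 strongest regions of its own list, the region was 4.58 times the median in replicate 1, 4.83 times in replicate 2 and 4.89 times in the optimal list. It was the strongest promoter region in all 3. The region (chrIII:8043795-8044127) lay entirely upstream of the gene, with its summit 504 bp before the 5′ end, and the replicates' summits were 501 and 512 bp before it. It had no annotated noncoding gene within 200 bp. The next gene downstream, spcs-3, a subunit of the signal peptidase complex, starts 1034 bp from the summit, and the divergent K12H4.6 starts 1108 bp away, so neither has the summit in its promoter as defined here.

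ftt-2 (WBGene00001502, chrX:11603708-11605419, minus strand) encodes a 14-3-3 protein, an adaptor that binds phosphorylated serine and threonine residues and that in C. elegans binds the insulin pathway's transcription factor DAF-16. Its strongest promoter region had rank 14 in the optimal list (signal 599.3), rank 12 in replicate 1 (198.4) and rank 14 in replicate 2 (402.0). The summit was 532 bp upstream of the 5′ end, and in the replicates 487 and 534 bp upstream. Of the 6 genes, ftt-2 alone had 2 optimal peaks in its promoter. The other peak had rank 77 with a signal of 345.3 and its summit 731 bp upstream. That summit lay inside the region of the strongest peak, so the 2 regions overlap. This other peak is counted among the 223 other promoter peaks used for comparison below. In replicate 1 that second region ranked 18 and in replicate 2 it ranked 111, so the replicates differed more over it than over the first. No protein-coding gene other than ftt-2 lay within 2500 bp of the strongest summit. Both summits fell inside short genes that Ensembl classes as ncRNA, the first in F52D10.7 (137 bp) and the second in F52D10.9 (149 bp), both annotated on the strand of ftt-2. The second summit of replicate 1 was 22 bp outside F52D10.9.

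T13C5.6 (WBGene00020486, chrX:6206362-6207687, minus strand) encodes a protein with a phosphatidic acid phosphatase type 2 domain, a domain of enzymes that take the phosphate from phosphatidic acid to give diacylglycerol. Its region had rank 27 in the optimal list (signal 473.0), rank 34 in replicate 1 (133.9) and rank 22 in replicate 2 (344.2). The summit lay 213 bp upstream of the 5′ end, against 256 bp in replicate 1 and 194 bp in replicate 2. In every list it was inside C14F11.14, an ncRNA-class gene of 147 bp annotated on the other strand, and in the optimal list 65 bp downstream of that gene's 5′ end. The upstream protein-coding neighbour C14F11.7 is on the same strand as T13C5.6 and ends 260 bp from the summit, so this intergenic stretch is not divergent.

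W01D2.3 (WBGene00012180, chrII:14800913-14804309, minus strand) encodes a receptor expression-enhancing protein, a family known for shaping the tubules of the endoplasmic reticulum. Its strongest region had rank 34 in the optimal list (signal 460.5), rank 31 in replicate 1 (140.0) and rank 32 in replicate 2 (329.4). The ranks were close, but the place was not. The optimal summit was 386 bp upstream of the 5′ end, that of replicate 1 was 222 bp upstream and that of replicate 2 was 438 bp upstream. The gap of 216 bp between the replicates was at least as large as that of 98.4% of the 638 optimal peaks matched in both replicates, whose median gap was 30 bp. Replicate 1 had a further region here at rank 68 (signal 110.3), with its summit 429 bp upstream, which is 9 bp from the summit of replicate 2. There are 2 ncRNA-class genes on the other strand in this promoter. The optimal summit lay 100 bp upstream of the start of W01D2.9 (82 bp) and 136 bp past the end of W01D2.7 (58 bp), between the pair, while the strongest summit of replicate 1 was inside W01D2.7. The divergent protein-coding neighbour, srt-11, starts 1291 bp away.

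atx-2 (WBGene00000231, chrIII:10461389-10468051, plus strand) encodes the C. elegans homologue of ataxin-2, an RNA-binding protein that acts in translational control in the germ line. Its promoter region had rank 26 in the optimal list (signal 475.1), rank 23 in replicate 1 (153.0) and rank 33 in replicate 2 (327.8). The summit was 58 bp upstream of the 5′ end in the optimal list and in replicate 2, and 99 bp upstream in replicate 1. The region covered 199 bp of chrIII:10461223-10461421 and so reached over the 5′ end into the gene. The same summit was 780 bp upstream of the divergent gene ecps-1, which encodes a protein with the domain of the proteasome component Ecm29, and it counts as a promoter peak of both genes although it was much the closer to atx-2. A further region lay inside atx-2, at an offset of −689 bp from its 3′ end, at rank 796 of the pooled list (signal 129.3), outside the optimal list.

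idhg-1 (WBGene00009440, chrIII:4568797-4571865, plus strand) encodes a subunit of the mitochondrial NAD-dependent isocitrate dehydrogenase, which turns isocitrate into 2-oxoglutarate in the tricarboxylic acid cycle. Its region had rank 58 in the optimal list (signal 384.3), rank 73 in replicate 1 (106.8) and rank 54 in replicate 2 (277.5). The summit was 47 bp upstream of the 5′ end, 63 bp in replicate 1 and 48 bp in replicate 2. RefSeq places the start of idhg-1 farther downstream, and from that start the summit was 263 bp upstream, so the close position rests on the Ensembl model. The peak also counts for the divergent gene mlcd-1, malonyl-CoA decarboxylase, whose start is 620 bp away. As at atx-2, no noncoding gene was annotated within 200 bp.

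**Figure D1:**
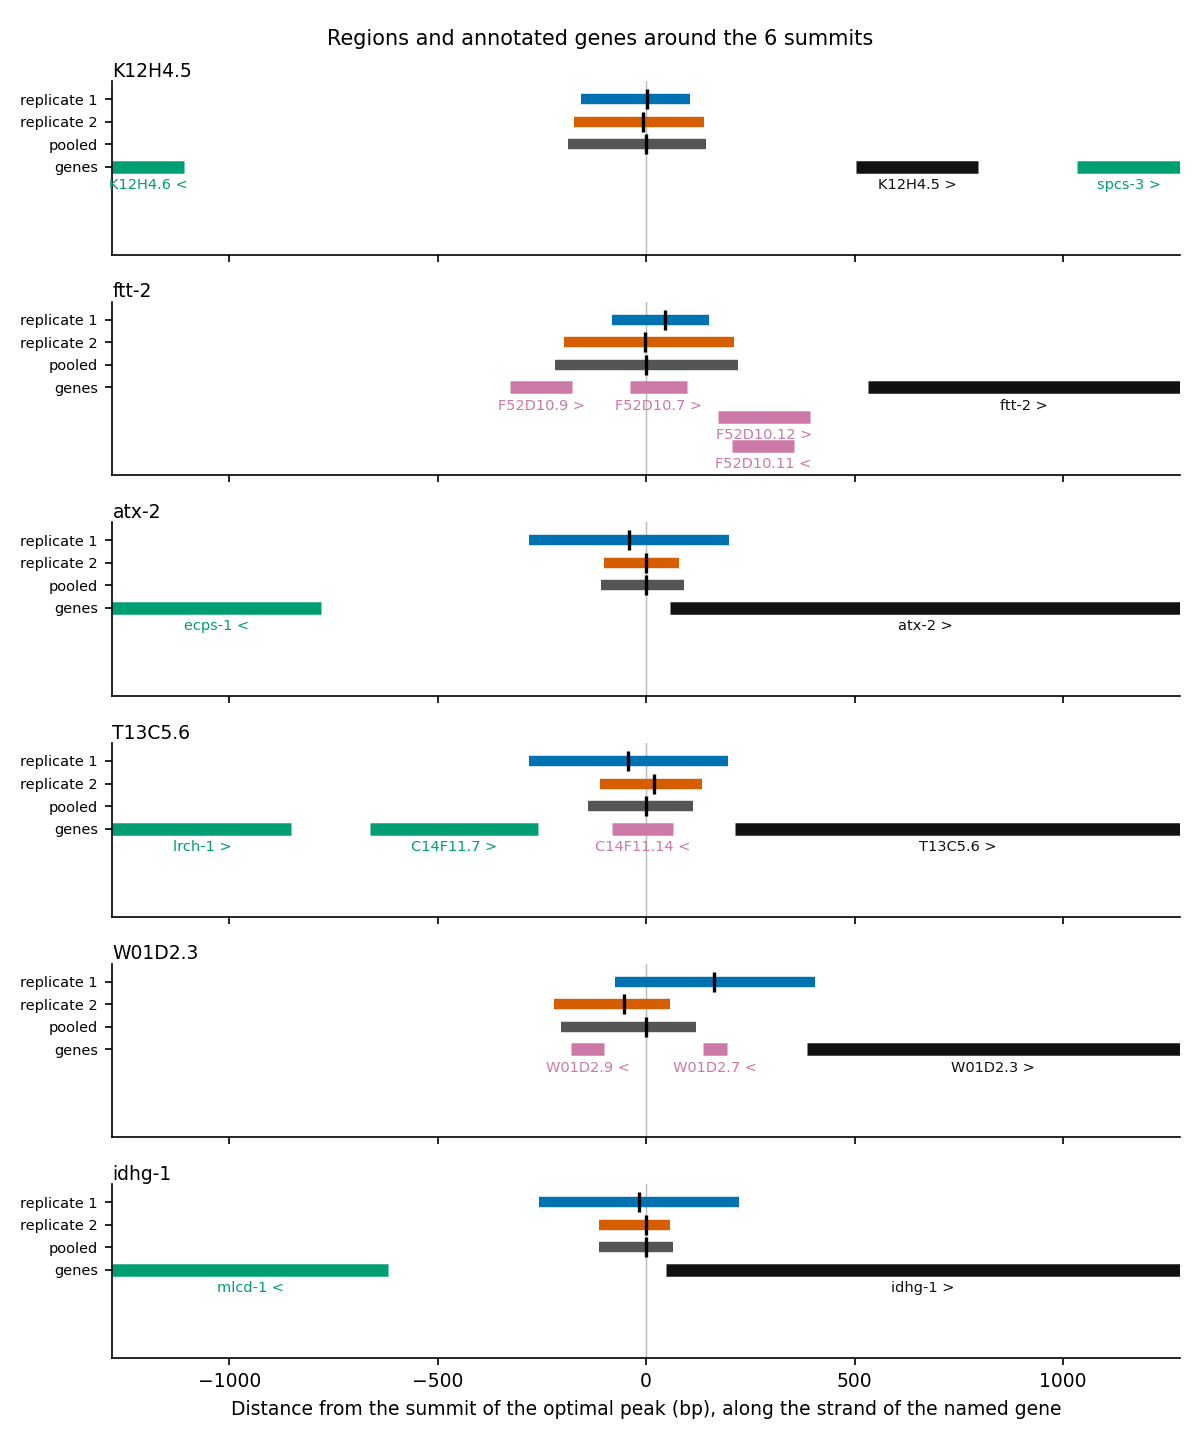
Annotated genes and the strongest region in each list around the optimal summit of each of the 6 genes, in bp along the strand of the named gene. Bars are regions (blue, replicate 1, orange, replicate 2, grey, pooled) with a black tick at the summit; genes are black for the named gene, green for other protein-coding genes and pink for the ncRNA class, with > for the strand of the named gene and < for the other. At K12H4.5, atx-2 and idhg-1 the nearest annotated genes are protein-coding, while summits at ftt-2 and T13C5.6 lie inside an ncRNA-class gene and the replicates' summits at W01D2.3 are 216 bp apart.

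Among the 6, K12H4.5 and ftt-2 stood above the other members in every list, at ranks from 3 to 14, whereas atx-2, T13C5.6 and W01D2.3 lay between ranks 22 and 34. The order of these last 3 was not the same in the replicates. In replicate 1 atx-2 came first at rank 23 and T13C5.6 last at rank 34, and in replicate 2 T13C5.6 came first at rank 22 and atx-2 last at rank 33. idhg-1 was the weakest of the 6 in all lists. The median rank was 26.5 in the optimal list, 27 in replicate 1 and 27 in replicate 2. Counted among promoter regions only, the optimal ranks were 1 for K12H4.5, 6 for ftt-2, 9 for atx-2, 10 for T13C5.6, 12 for W01D2.3 and 20 for idhg-1. The −log10 q value of each of the 6 peaks was 2.47, the highest in the optimal list, so this score does not order them.

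**Figure D2:**
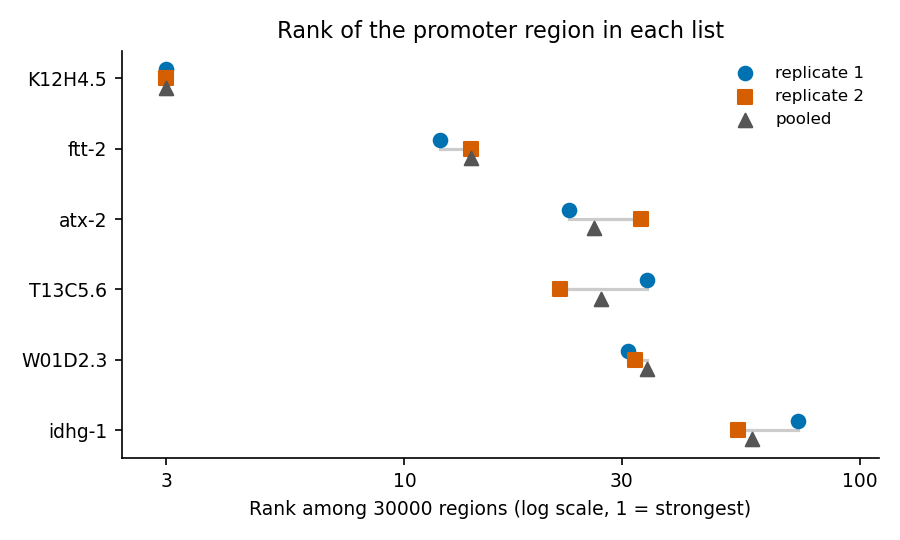
Rank of the strongest promoter region of each gene among the 30000 regions of replicate 1 (circles), replicate 2 (squares) and the pooled list (triangles), on a log axis where 1 is the strongest. K12H4.5 is at rank 3 in all lists, and the ranks of atx-2 (23 and 33) and T13C5.6 (34 and 22) cross between the replicates.

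The signal chose the members, and their limits in the list were as follows. Between W01D2.3 and idhg-1 lay the peak of rpl-3, a ribosomal protein gene, at rank 38 (signal 441.6), and the peak shared by ears-2, a glutamyl-tRNA synthetase gene, and uncp-18, at rank 50 (411.8). These genes meet the same description and are not among the 6. Just below idhg-1, at rank 59, was cbp-1, the C. elegans homologue of the acetyltransferases CBP and p300, with a signal of 376.2 and its summit at an offset of −951 bp from the 5′ end. The next was the peak shared by the histone genes his-31 and his-32 at rank 74 (349.7). There was thus no step in signal that set the members apart from these neighbours. Measured as the sum over both replicates of the absolute difference from the members' median log2 rank, the genes most like the members were rpl-3 (1.28), ears-2 and uncp-18 (1.46 each, with 1 peak between them), and then cbp-1 (3.01).

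**Figure D3:**
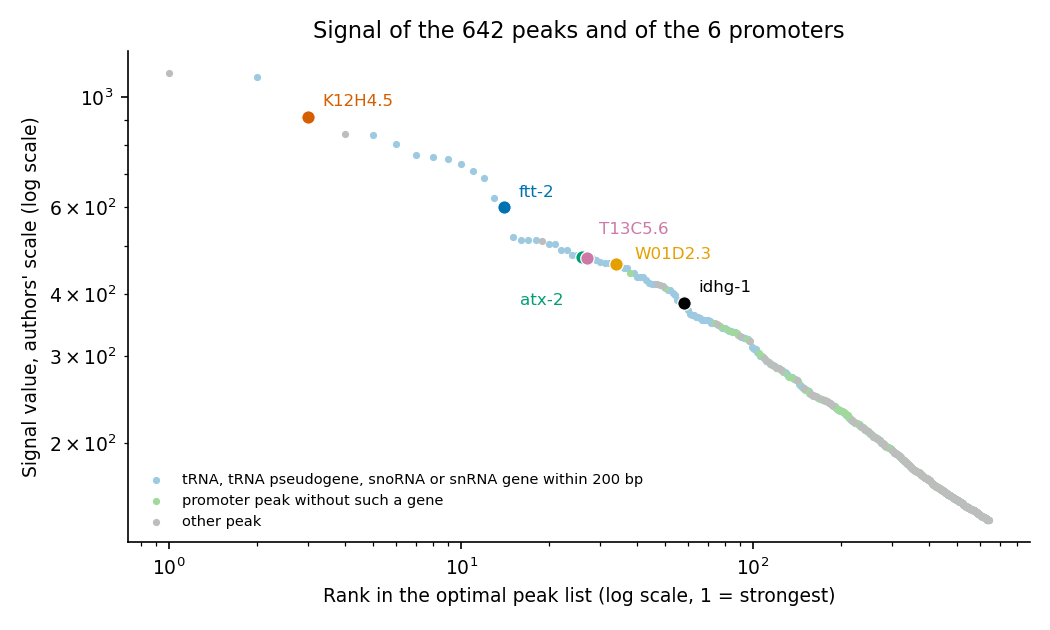
Signal value (authors' scale, log axis) against rank (log axis) of the 642 optimal peaks, coloured by whether a small RNA gene lay within 200 bp, with the 6 genes as large labelled points. K12H4.5 (911.7) and ftt-2 (599.3) lie among peaks beside small RNA genes, and the curve runs on without a step from idhg-1 (384.3) to the peaks below it.

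The regions at the 6 promoters were narrow. Their widths in the optimal list were 333 bp at K12H4.5, 441 bp at ftt-2, 199 bp at atx-2, 253 bp at T13C5.6, 325 bp at W01D2.3 and 180 bp at idhg-1. All 6 were below 476 bp, the width of 569 of the 642 peaks. Narrow regions were also the rule among strong peaks, with 50 of the 58 strongest (86.2%) under that width against 20 of the 584 weaker ones (3.42%), so narrowness went with signal and is not particular to these genes. In replicate 1 only K12H4.5 (263 bp) and ftt-2 (235 bp) were narrower than the commonest width of 480 bp, while in replicate 2 all 6 were narrower than the commonest 470 bp, from 170 bp at idhg-1 to 409 bp at ftt-2.

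The summits lay upstream of the 5′ end in all 6 genes and in every list, in 2 ranges. Those of atx-2 (58 bp) and idhg-1 (47 bp) were within 100 bp, and those of the other four were from 213 bp (T13C5.6) to 532 bp (ftt-2) upstream. The place of idhg-1 within 100 bp rests on the Ensembl start, since from the RefSeq start its summit was 263 bp upstream. The median offset was −299.5 bp. Among the 223 other promoter peaks without a small RNA gene the median was −207 bp, with quartiles of −440 and −91.5 bp, and 41 of them (18.4%) were upstream or downstream by at most 100 bp, against 2 of the 6 (33.3%). All 6 positions fell within the range of the others, from −983 to 257 bp. ftt-2 and K12H4.5 were farther upstream than the lower quartile, atx-2 and idhg-1 were closer to the 5′ end than the upper quartile, and T13C5.6 and W01D2.3 lay between the quartiles. Between replicates the summits of K12H4.5 moved by 11 bp, of idhg-1 by 15 bp, of atx-2 by 41 bp, of ftt-2 by 47 bp and of T13C5.6 by 62 bp. These gaps were within the upper quartile of 68.75 bp over the matched peaks, with W01D2.3 the exception.

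**Figure D4:**
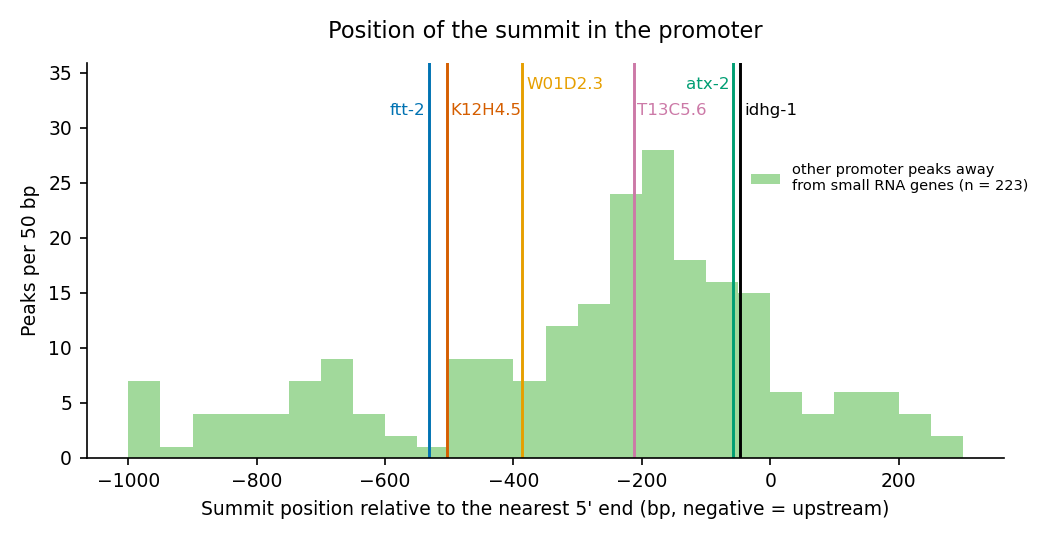
Position of the summit relative to the nearest 5′ end (bp, negative is upstream) for the 223 other promoter peaks without a small RNA gene within 200 bp, as a histogram in bins of 50 bp, with coloured lines for the 6 genes. The lines for atx-2 and idhg-1 stand close to the Ensembl 5′ end and those for K12H4.5 and ftt-2 lie more than 500 bp upstream.

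Although no small RNA gene lay within 200 bp of these summits, and none within 1000 bp, 3 of the 6 had an ncRNA-class gene within 200 bp. They were ftt-2, T13C5.6 and W01D2.3, while K12H4.5, atx-2 and idhg-1 had no noncoding gene of any class there. The ncRNA class holds 7764 annotated genes, and it was not part of the choice. Of the 223 other promoter peaks without a small RNA gene, 34 (15.2%) had an ncRNA-class gene within 200 bp, and of all 642 peaks 226 (35.2%) had. With 6 genes, the share of 50% is a description and no claim about the class.

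At T13C5.6 the ncRNA-class gene held a sequence of a kind found in tRNA genes. The B box is the internal promoter element of tRNA genes that the polymerase III factor TFIIIC binds. The letters GGTTCAATCCC lay on the strand of C14F11.14, at bases 65 to 75 of its 147. The optimal T13C5.6 summit base, 213 bp upstream of the 5′ end, was inside this stretch, 4 bp from its middle. The summits of replicate 1 (256 bp upstream) and replicate 2 (194 bp upstream) were outside it. In the line for T13C5.6 above the letters appear as the capitals of the other strand. The pattern counted as a B box was added after the sequences had been seen. It admits the A of these letters where the motif GGTTCGA has a G. By that pattern a B box was present within 50 bp of the summit of 88 of the 642 peaks (13.7%). It was found at 83 of the 243 peaks beside a small RNA gene (34.2%), but at 5 of the 399 peaks without one (1.25%). It was present in 8 of the 19973 windows of 101 bp just before a protein-coding gene's start (0.0401%). At the 83 peaks beside a small RNA gene its middle lay a median of 22 bp from the summit. None of the other 5 promoters held it. A match says that the letters are present, and whether C14F11.14 is transcribed by polymerase III was not tested.

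The peaks of atx-2 and idhg-1 had sequence in common. Both windows held, in the same order and along the strand of the gene, CGCGCGGC, then TTGCGA and then GTGCGGCGC. The starts of the first and second were 12 bp apart in both, and those of the second and the third were 12 bp apart at atx-2 and 13 bp apart at idhg-1. At atx-2 the 3 stretches began 33, 21 and 9 bp upstream of the optimal summit and at idhg-1 27, 15 and 2 bp upstream. The last of them ended 1 bp before the summit at atx-2, and at idhg-1 it ran over the summit to 6 bp past it. The first stretch followed by any 4 bases and TTGCGA occurred in 2 of the 642 peak windows, those of atx-2 and idhg-1. It occurred in 2 of the 19973 windows of 101 bp before gene starts (0.0100%), which were again those of atx-2 and idhg-1. Since the pattern was read from this pair, their matches are how it was found. GTGCGGCGC alone, counted on both strands, was in 6 of the 642 peak windows (0.935%) and 11 of the promoter windows (0.0551%). CGCGCGGC was in 11 peak windows (1.71%) and 0.120% of promoter windows. Mean G and C was 33.2% in the promoter windows and 48.9% in the peak windows, and these shares are not adjusted for that. A stretch of 8 bases, AGGGCGGA, was also in both, in opposite orientations, and in 4 peak windows in all.

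TTGCGA was present in the promoter of ftt-2 as well. In all 3 it read along the strand of the gene and lay between 21 and 10 bp upstream of the optimal summit. The optimal offsets were −532 bp at ftt-2, −58 bp at atx-2 and −47 bp at idhg-1, and replicate 2 had −534, −58 and −48 bp. Replicate 1 had −487, −99 and −63 bp, so from its summits TTGCGA lay upstream at ftt-2 but downstream at atx-2 and idhg-1. The common position therefore did not hold in replicate 1. On both strands TTGCGA was in 6.70% of all peak windows, in 9.27% of those without a small RNA gene and in 3.77% of promoter windows. The longer TTGCGAAA, at ftt-2 and atx-2, was in 19 peak windows (2.96%), all 19 of them without a small RNA gene, and in 1.25% of promoter windows. K12H4.5 and ftt-2 shared 2 overlapping or neighbouring stretches of 9 bases, AATGTGTCA and AGAAATGTG, both counted on either strand. The first occurred in these 2 windows alone of the 642 and in 0.145% of promoter windows. Stretches of 6 to 9 bases shared by a pair were found in all 15 pairs of the 6 windows, so short identities of this kind were common. W01D2.3 held the palindrome TGACGTCA, known from mammals as the cAMP response element, from 7 bp upstream of the optimal summit to the summit base. The summits of replicate 1 (222 bp upstream of the 5′ end) and replicate 2 (438 bp) lay outside the palindrome, the optimal one being at 386 bp. The palindrome was in 5 of the 642 peak windows (0.779%) and 0.305% of promoter windows.

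Of 12 short motifs listed for counting, on both strands, 6 were found in at least 1 window of the 6 genes. ftt-2 held AGAGCG, besides that AGCGCG, and with it the palindrome GCGCGC. atx-2 held that palindrome too, and CCGCCC was in the windows of atx-2 and idhg-1. idhg-1 also held CACGTG, the E-box palindrome, and K12H4.5 held GAGAGA. Some overlap the marked stretches, as CCGCCC lies within AGGGCGGA on the other strand and CACGTG at idhg-1 overlaps GTGCGGCGC. GCGCGC was in 9.50% of all peak windows and 1.11% of promoter windows, CCGCCC in 9.19% and 3.49%, AGAGCG in 14.5% and 2.17%, AGCGCG in 9.50% and 1.43%, GAGAGA in 15.4% and 8.87% and CACGTG in 1.87% and 2.47%. None of the 6 windows held the motif CGAACC, its neighbour by 1 base GAACCC, the motif CTGCGTC, the TATA box core TATAAA, the splice acceptor sequence TTTCAG or the motif GGTTCGA. T13C5.6 and W01D2.3 held none of the 12.

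The windows were richer in G and C than stretches 150 to 250 bp away. The share of G and C in the 101 bp was 46.5% at K12H4.5, 54.5% at ftt-2, 61.4% at atx-2, 55.4% at T13C5.6, 47.5% at W01D2.3 and 50.5% at idhg-1. In the stretches 150 to 250 bp to each side of the summit it was lower at each gene, from 28.5% at K12H4.5 to 44.5% at W01D2.3. The mean of the 6 windows was 52.6% ± 5.58 (SD, n = 6 windows). That of the 223 other promoter peaks without a small RNA gene was 48.1% ± 9.24 (SD), with a range of 20.8% to 67.3% that took in all 6. Windows of 101 bp before all gene starts had 33.2% ± 8.25. The rise was steep at atx-2, which went from 32.5% in the flanks to 61.4%, and small at W01D2.3, from 44.5% to 47.5%.

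**Figure D5:**
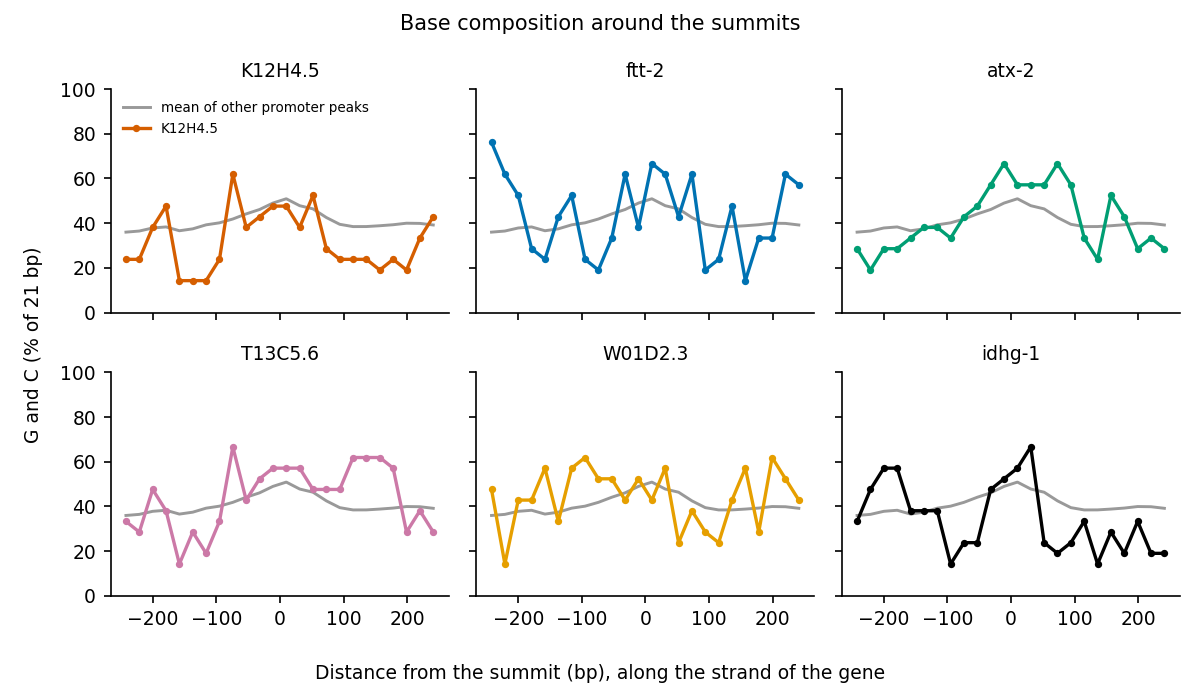
Share of G and C in bins of 21 bp against distance from the summit (bp, along the strand of the gene) at each of the 6 genes, with the mean of the 223 other promoter peaks without a small RNA gene in grey. atx-2 and idhg-1 rise near the summit, and the profile of W01D2.3 shows no single maximum there. At K12H4.5, ftt-2 and T13C5.6 the highest bin also lies away from the summit, at −74, −242 and −74 bp.

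Promoter peaks were also counted among genes of the pathways to which 3 of the members belong. Of 24 genes of the tricarboxylic acid cycle, 2 had one in the optimal list, idhg-1 and dlst-1. dlst-1, the succinyltransferase component of the 2-oxoglutarate dehydrogenase complex, had rank 491 (signal 154.2), with ranks of 824 and 604 in replicates 1 and 2. The other subunit genes of the same enzyme as idhg-1 were far lower in the pooled list, with idhb-1 at rank 8182 and idha-1 at rank 8447, and idhg-2 had no region in its promoter. Of 11 genes of 14-3-3 and insulin-like signalling, ftt-2 was the only one with an optimal promoter peak, and par-5, which encodes the other 14-3-3 protein, had its strongest promoter region at rank 8131. Of 18 genes of ataxin-2 and translational control, atx-2 and ifet-1 had one. ifet-1, a translational repressor, had rank 612 (signal 141.9), with ranks of 3625 and 712 in replicates 1 and 2, and so was not among the 642 strongest regions of either replicate alone. With 1.85% of all genes called, these counts are small numbers in which members that were chosen for their peaks are included. Without the members the counts were 1, 0 and 1, in the order given here, and nothing is read from them about the pathways.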

How the data were processed

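Chromatin immunoprecipitation regions of 2 replicates of 1 group were analysed in build ce11. Per the deposited format descriptions, the authors made a list of 30000 regions from each replicate's alignment, a list from both replicates pooled, and an optimal list thresholded on the irreproducible discovery rate, a measure of how reproducibly regions rank. Neither the aligner nor the peak caller, nor a version or that threshold, is given in the sources used here. The signal value in the authors' lists has no stated scale, so regions were ranked within a list and no level was compared from one list to another. The −log10 q value in the authors' lists was used only as a description. Read counts are not part of the lists, and the depth is therefore unknown. The pooled list is labelled as holding peaks and background, so its regions outside the optimal list may be background. Lists in build ce10 were not used here.

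Chromosome names and lengths matched WBcel235, and regions were annotated with Ensembl release 115 genes; RefSeq of the same assembly gave product names and alternative 5′ ends. Coordinates are 1-based. The strongest region with a summit from 1000 bp upstream to 300 bp downstream of a protein-coding 5′ end was taken for each gene. Motifs were counted on both strands of 101 bp windows around each summit, beside the 101 bp before each protein-coding gene. Peak and promoter windows differ in position and in G and C, and motif shares were not adjusted for this. The scripts used Python 3.11.15, NumPy 2.4.6 and Matplotlib 3.10.9, and were tested on simulated regions with known answers.

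No tests were made: there is 1 group, and the genes were chosen by the signal described. The genes, the pathway lists and the motif list were chosen with earlier results of these data known, and the B box, the palindrome and the shared stretches were chosen after the sequences were seen. Other genes named are divergent neighbours, genes that share a summit, pathway genes, genes next in rank and the non-member genes closest in rank over both replicates; a few further neighbours and pathway genes were named after their values were seen. Alternatives were each replicate alone, other windows, another annotation and stricter peak sets.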

Additional observations from a re-analysis of the deposited data

How the results depend on the processing

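With 1 replicate left out, the median rank of the 6 genes was 27 to 27 against 26.5, the median offset −316 to −239 bp against −299.5, and the median width 262 to 480 bp against 289, since replicate 1 gave most regions the full width. With RefSeq 5′ ends the median offset was −324.5 bp, and the offset of idhg-1 was −263 bp. Ranked only among regions without a small RNA gene, the median rank was 6.5, a shorter list by construction. All 6 genes kept a promoter peak in each replicate alone and in the stricter peak sets. The genes were chosen for strong peaks, so this outcome was all but fixed by the choice and is no sign of robustness. A window of 500 bp upstream to 200 bp downstream kept 4, without K12H4.5 and ftt-2. Asking for no noncoding gene of any class within 200 bp kept 3 (K12H4.5, atx-2 and idhg-1). The pathway lists had 5 genes with a promoter peak in all, 3 with the shorter window and 3 to 5 with 1 replicate left out. Motif matches in the 6 windows, with overlapping motifs counted separately, numbered 8. They numbered 13 with 100 bp and 2 with 25 bp to each side, as the searched length changes, and 6 to 9 with 1 replicate left out. No value changed sign. No paired analysis was possible because there is only 1 group. The unknown depth limits every statement on a missing region, and 2 replicates give no more than a range.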

Other observations

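Of the 5 peaks that held a B box without a small RNA gene within 200 bp, the one at T13C5.6 was the strongest, at rank 27. The others had ranks 158, 198, 409 and 439. The peaks at ranks 27, 158 and 198 were on chromosome X and had an ncRNA-class or other noncoding gene within 200 bp, and those at ranks 409 and 439, on chromosome IV, had none annotated. The peak at T13C5.6 and that at rank 198 lay in promoters of protein-coding genes, and the other three did not. ftt-2 also had 2 regions of the pooled list past its 3′ end, at ranks 1826 and 1880, with summits 423 and 190 bp beyond it. W01D2.3 had a region of the pooled list inside the gene at rank 1987. These regions at ftt-2 and W01D2.3 are outside the optimal list and may be background, which the pooled list also holds.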
